A study of Mus musculus with 8 samples.

Results

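The BCL2 family sets whether a cell commits to death through its mitochondria. Its anti-apoptotic members (BCL2, BCL-XL and MCL1) hold the pore formers BAX and BAK in check, the BH3-only members (BAD, BID, PUMA, NOXA and BIM) bind and block the guards or activate the pore formers directly, and open pores let cytochrome c out to start the caspases. In pancreatic β-cells these proteins are studied because β-cell loss accompanies diabetes. The mRNAs of 10 such genes, out of 26894 gene symbols on the array, were followed here: *Bcl2*, *Bcl2l1* (BCL-XL), *Mcl1*, *Bax*, *Bak1*, *Bad*, *Bid*, *Bbc3* (PUMA), *Pmaip1* (NOXA) and *Bcl2l11* (BIM). Their probes were taken by gene symbol from the authors' probe table, whatever their values. The genes themselves were chosen with earlier results of these data known.

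Islets of 4 βUCP2Tg samples were set against islets of 4 WT samples, each RNA hybridised to its own one-colour array. βUCP2Tg mice carry a transgene in which the rat *Ins2* promoter drives a mouse *Ucp2* cDNA in β-cells, and WT mice were their littermates without it. UCP2 is a carrier of the inner mitochondrial membrane, and the study asked what its excess does to β-cells. All mice were male, islets came from animals of 8 to 12 weeks, and islets of both genotypes were kept at 200 mg/dL glucose for 8 h before RNA extraction. Neither the labels nor the methods say whether a sample is a single mouse, and n therefore counts samples, whose spread may be partly technical. Islets also hold endocrine cells other than β-cells and some vessel, immune and exocrine cells, and in such bulk RNA fewer cells of a type cannot be told apart from less RNA per cell. The comparison shows whether mRNA of the death regulators differed between the genotypes. Proteins were not measured on these arrays.

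*Ucp2* itself followed the labels. On the probe A_51_P297105 its normalized log2 signal (log2 of spot brightness minus the array's 75th percentile) was 7.71, 7.50, 7.33 and 6.99 on βUCP2Tg replicates 1 to 4, and 1.18, 0.92, 1.03 and 1.46 on WT replicates 1 to 4. The difference, βUCP2Tg minus WT, was 6.24 on the log2 scale (limma, Benjamini-Hochberg adjusted p = 9.32e-06). A second *Ucp2* probe, A_52_P90265, also had every βUCP2Tg array above every WT array. Its log2 difference was only 0.44 (limma, Benjamini-Hochberg adjusted p = 0.0987). The β-cell markers, *Ins1* and *Ins2* among them, were measured on all arrays, with a summed linear signal of 1192 to 1583 times the array's 75th percentile in βUCP2Tg and 1515 to 1573 in WT. Acinar markers such as *Cela2a* and *Pnlip* were present to an unequal degree, with sums of 11.2 to 206 in βUCP2Tg and 17.5 to 347 in WT (two-sided exact permutation test, p = 0.2), and 13 of the 14 acinar genes were measured well enough to be tested. No gene of the 7 marker lists (β-cell, other endocrine, acinar, duct, endothelial, macrophage and stromal) was called. At an unadjusted p under 0.05 were 2 of 10 β-cell, 2 of 7 other endocrine, 0 of 13 acinar and 3 of 4 duct markers. So were 4 of 9 endothelial, 3 of 10 macrophage and 1 of 6 stromal markers, beside 24.5% of all genes. The 21 hypoxia response genes, a list chosen with earlier results of these data known, set 2 arrays apart from their groups. Their mean log2 signal was 0.98, 0.99 and 0.97 on βUCP2Tg replicates 1 to 3 but 2.20 on replicate 4, and 2.66, 2.66 and 2.64 on WT replicates 2 to 4 but 1.65 on replicate 1. WT arrays filled one row of the slide and βUCP2Tg arrays the other, so that row and genotype cannot be told apart, and every βUCP2Tg array was brighter than every WT array before scaling (two-sided exact permutation test of the 75th percentile, p = 0.0286).

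The array carried 22 probes for the 10 genes, each of 60 bases, and no pair of probes for the same gene shared a stretch of 12 bases. Several genes were thus read at separate places of the transcript. The first 30 bases of 5 probes are given, as the deposited table lists them, because they show where the readings that matter below were taken. The 4 *Bcl2l11* probes are shown because they did not point the same way. The first of them covers the coding sequence of the BH3 helix by which BIM grips the anti-apoptotic proteins, and its capitals mark the glycine and aspartate codons at the helix's core.

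*Bcl2l11* A_51_P484880: ggatcGGAGACgagttcaacgaaacttaca
*Bcl2l11* A_52_P158527: aacagcactgatctctgtatagtccccatc
*Bcl2l11* A_52_P348214: atctcagtgcaatggatcagttggagaatc
*Bcl2l11* A_55_P2504051: ttgtttactgtttggaagtcgttttactcg

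The fifth is shown because it reads coding sequence of a guard with lower signals. It lies just beyond the BH1 region of BCL-XL, part of the groove that takes up a BH3 helix.

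*Bcl2l1* A_52_P510877: attggtgagtcggattgcaagttggatggc

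None of the 10 genes was called different between βUCP2Tg and WT islets. The anti-apoptotic *Bcl2l1* had lower signals in βUCP2Tg on each of its 5 probes, *Bcl2* likewise on its 2 probes above background on all arrays, and the BH3-only *Pmaip1* had higher signals on every βUCP2Tg array than on any WT array. *Mcl1*, *Bax* and *Bak1* had log2 differences of 0.16 or less in size. Of the 22 probes, 21 cleared the background on 4 or more arrays and were tested. A probe was called at a limma adjusted p (Benjamini-Hochberg over all 35363 probes tested) under 0.05 with a fold change over 1.5. By this rule 0 of the 21 member probes were called, against 145 probes or 0.41% of all those tested.

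At an unadjusted p under 0.05, 8 of the 21 member probes stood out, 6 lower in βUCP2Tg and 2 higher. Over all probes tested that share was 25.2%, made up of 15.2% lower and 9.99% higher. Of the 6 lower probes 5 belong to *Bcl2l1*, so they are repeated readings of 1 gene, though annotated to different transcript variants, and not separate genes. Counting each gene once by its brightest tested probe, 2 of 10 genes were under 0.05, *Bcl2l1* lower and *Pmaip1* higher, against 24.5% of all 17870 genes, and the groups did not overlap for 1 (*Pmaip1*), against 13.1%. The median log2 difference of the 10 genes was 0.10, beside 0.03 over all genes. Counted in this way, the family did not stand out from the array as a whole.

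**Figure D1:**
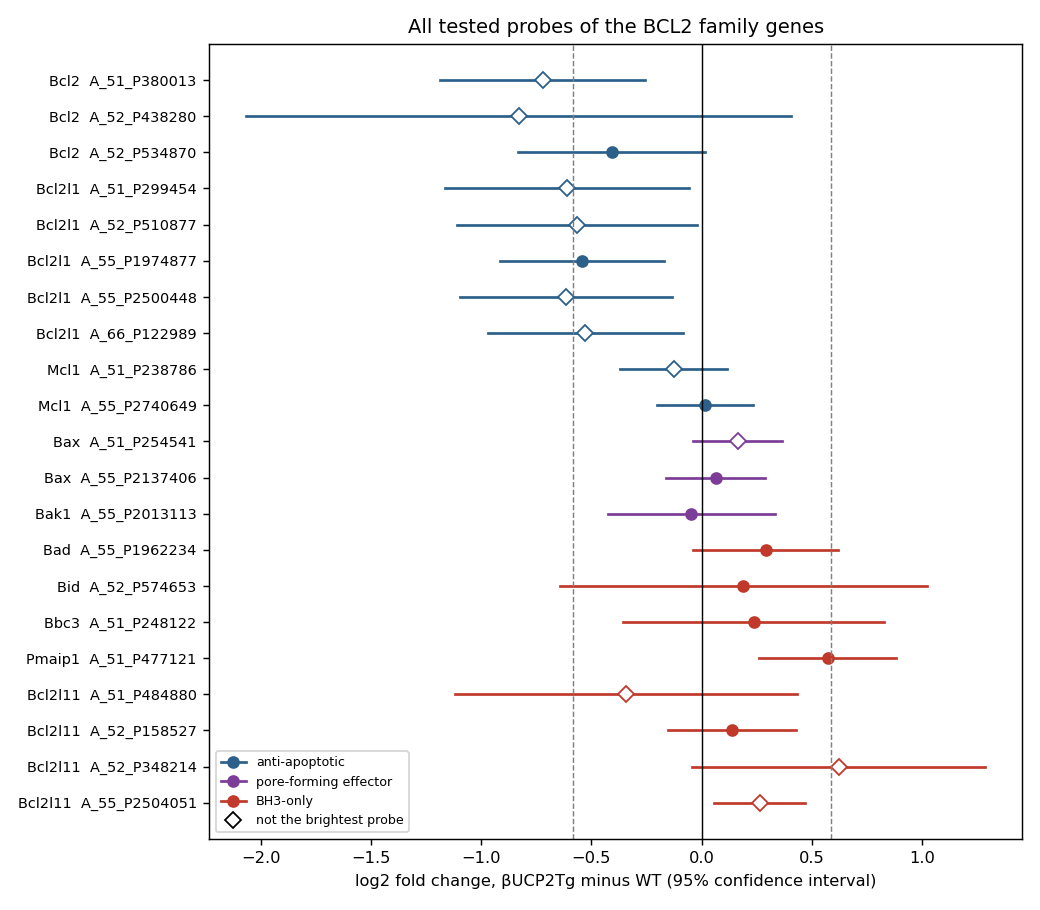
Log2 fold change (βUCP2Tg minus WT) with its 95% confidence interval from limma for each of the 21 tested probes, coloured by role, with filled circles for the brightest probe of each gene and open diamonds for the others. Dashed lines mark a 1.5-fold change. All probes of *Bcl2* and *Bcl2l1* lie left of 0, *Mcl1*, *Bax* and *Bak1* lie near 0, and the 4 *Bcl2l11* probes lie on both sides.

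Among the guards, *Bcl2l1* encodes BCL-XL, which sits on the outer mitochondrial membrane and binds BH3-only proteins, BAX and BAK. On its brightest probe, A_55_P1974877, the log2 signal was 3.92, 4.08, 4.19 and 4.37 on βUCP2Tg replicates 1 to 4 and 4.27, 4.93, 4.72 and 4.81 on WT replicates 1 to 4. WT replicates 2 to 4 were above every βUCP2Tg array, while WT replicate 1 fell inside the βUCP2Tg range, so that the groups overlapped. The mean was 4.14 ± 0.19 (SD, n = 4) in βUCP2Tg and 4.68 ± 0.29 (SD, n = 4) in WT, a log2 difference of -0.54 (SE 0.16; limma, Benjamini-Hochberg adjusted p = 0.11). That corresponds to a signal 1.46-fold lower in βUCP2Tg.

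The other *Bcl2l1* probes gave the same picture at lower brightness. On the coding probe A_52_P510877 the log2 signal was -3.16, -3.20, -2.82 and -2.56 in βUCP2Tg and -2.99, -2.05, -2.07 and -2.35 in WT. A_51_P299454 gave -3.28, -3.27, -3.03 and -2.57 in βUCP2Tg and -3.05, -2.27, -2.09 and -2.28 in WT. On both, every βUCP2Tg array and WT replicate 1 were below the other WT arrays. A_55_P2500448 gave -3.77, -3.88, -3.40 and -3.35 in βUCP2Tg and -3.50, -2.64, -2.76 and -3.04 in WT, and A_66_P122989 gave -1.93, -1.98, -1.71 and -1.67 in βUCP2Tg and -1.87, -1.04, -1.05 and -1.21 in WT. On these 2 probes, too, WT replicates 2 to 4 were above every βUCP2Tg array. Over the 5 probes the log2 difference lay between -0.62 and -0.53, with limma adjusted p-values (Benjamini-Hochberg) of 0.11 to 0.185, and the unadjusted p was under 0.05 on each. After normexp background correction the log2 difference lay between -0.48 and -0.33. WT replicate 1 was the lowest WT array on all 5 probes and overlapped the βUCP2Tg arrays each time. In 10 comparisons between pairs of *Bcl2l1* probes the genotype difference differed by at most 0.09 on the log2 scale.

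The order of the arrays in *Bcl2l1* resembled their order in the hypoxia response genes, in which βUCP2Tg replicate 4 was the highest βUCP2Tg array and WT replicate 1 the lowest WT array as well. The part of the hypoxia response in the *Bcl2l1* difference was not tested. Without WT replicate 1 the log2 difference was -0.68 (limma, Benjamini-Hochberg adjusted p = 0.0204), and *Bcl2l1* passed the call rule, as did 3759 probes in all. Without βUCP2Tg replicate 4 it was -0.62 (limma, Benjamini-Hochberg adjusted p = 0.0732). The brightest *Bcl2l1* probe had an unadjusted p under 0.05 in each of the 22 alternative analyses, whereas each of its other probes missed that limit when some single arrays were left out. With all arrays kept, A_52_P510877 also missed it under quantile normalization, under scaling to the 75th percentile of bright probes and with the plain test named in the methods, and A_51_P299454 missed it with that last test.

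**Figure D2:**
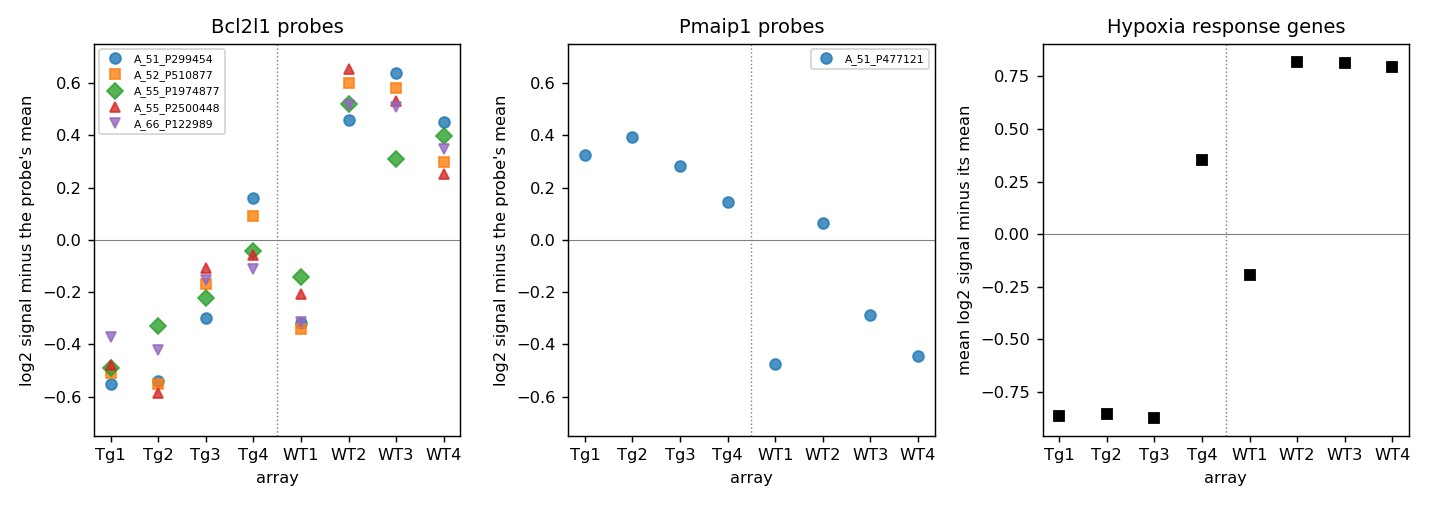
Log2 signal on each array minus the probe's mean over the 8 arrays for the 5 *Bcl2l1* probes (left, 1 symbol per probe) and the *Pmaip1* probe (middle), and mean log2 signal of the 21 hypoxia response genes minus its mean over arrays (right), with βUCP2Tg replicates as Tg1 to Tg4 and WT replicates as WT1 to WT4. The *Bcl2l1* probes move together and WT1 lies among the βUCP2Tg arrays, whereas for *Pmaip1* all βUCP2Tg arrays lie above all WT arrays.

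*Bcl2*, the founding member of the family, encodes a guard of mitochondria and endoplasmic reticulum. Its brightest probe, A_52_P534870, gave -1.49, -1.79, -1.33 and -0.90 in βUCP2Tg and -1.12, -0.76, -0.93 and -1.06 in WT. Here βUCP2Tg replicates 1 to 3 were below every WT array, and replicate 4 lay among the WT arrays. The log2 difference was -0.41 (SE 0.19; limma, Benjamini-Hochberg adjusted p = 0.212), and it was -0.27 without βUCP2Tg replicate 2 and -0.57 without replicate 4.

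The second *Bcl2* probe, A_51_P380013, gave -2.89, -3.35, -2.93 and -2.37 in βUCP2Tg and -2.43, -2.04, -1.99 and -2.20 in WT, again with only βUCP2Tg replicate 4 inside the WT range. Its log2 difference was -0.72 (SE 0.20; limma, Benjamini-Hochberg adjusted p = 0.102), a signal 1.65-fold lower. The third probe, A_52_P438280, was close to background, being well above it on 1 of 4 βUCP2Tg and 3 of 4 WT arrays, and its log2 difference of -0.83 had an SE of 0.54 (limma, Benjamini-Hochberg adjusted p = 0.364). On that probe βUCP2Tg replicate 4 was the highest of all arrays, and the log2 difference was -0.37 without βUCP2Tg replicate 2 and -0.30 after normexp background correction. The probe A_51_P380013 passed the call rule without βUCP2Tg replicate 4 (-0.89, limma, Benjamini-Hochberg adjusted p = 0.0353) and without WT replicate 1 (-0.81, limma, Benjamini-Hochberg adjusted p = 0.043), the same arrays that stood apart in the hypoxia response genes.

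*Mcl1* encodes a short-lived guard that is made and destroyed quickly. Its brightest probe, A_55_P2740649, gave 4.05, 4.08, 3.96 and 3.93 in βUCP2Tg and 3.82, 4.11, 3.99 and 4.04 in WT. The groups overlapped fully, and the log2 difference was 0.02 with a 95% confidence interval of -0.20 to 0.23 (limma, Benjamini-Hochberg adjusted p = 0.935). The second probe, A_51_P238786, had a log2 difference of -0.13 with an interval of -0.37 to 0.12.

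**Figure D3:**
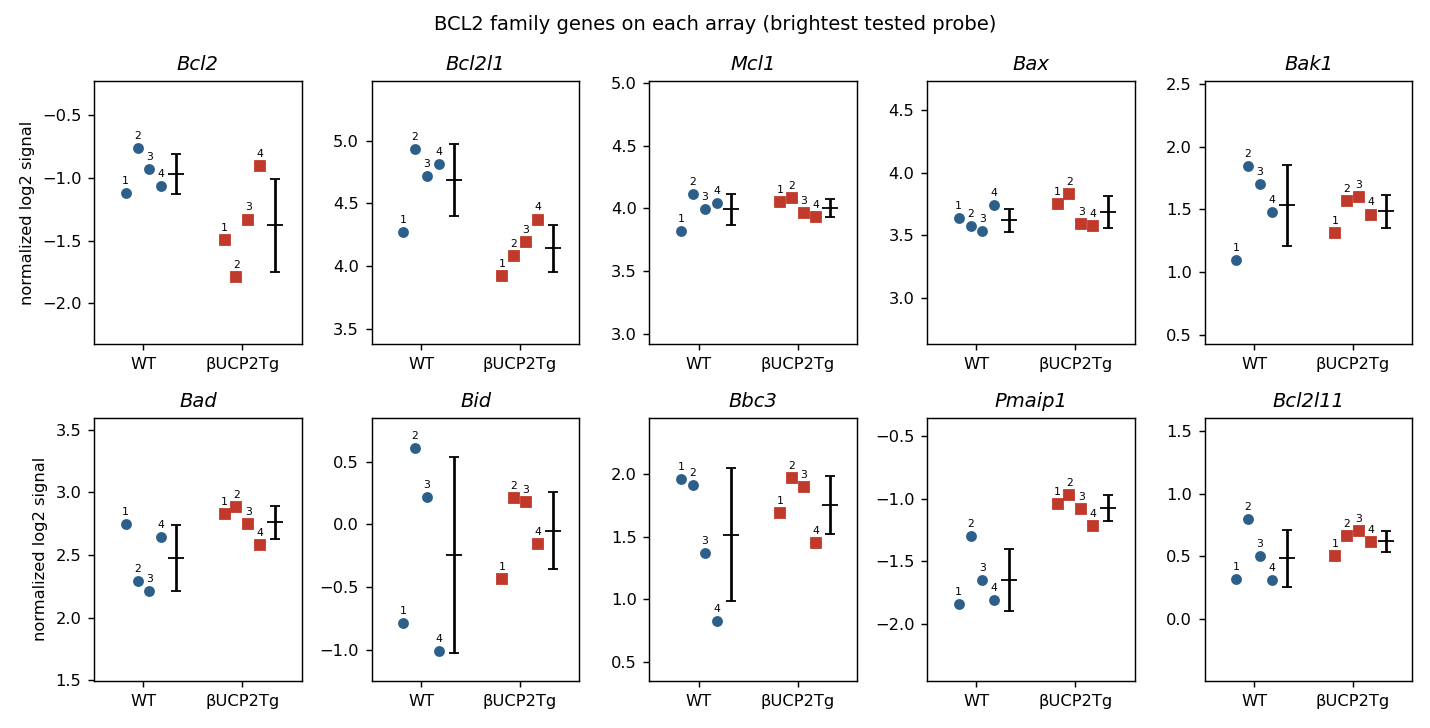
Normalized log2 signal of the 10 BCL2 family genes on each array by the brightest tested probe, with WT arrays as blue circles and βUCP2Tg arrays as red squares, the replicate number beside each point, and the mean with SD (n = 4) in black. Each vertical axis spans the same log2 distance but is centred on its own gene, since brightness cannot be compared between probes. For *Pmaip1* alone of the 10 the groups do not overlap on this probe.

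The pore formers differed little. *Bax* encodes BAX, which moves from the cytosol into the outer mitochondrial membrane when activated. Its brightest probe, A_55_P2137406, gave 3.75, 3.83, 3.59 and 3.57 in βUCP2Tg and 3.64, 3.57, 3.53 and 3.74 in WT, with overlapping groups and a log2 difference of 0.06 (95% confidence interval -0.16 to 0.29; limma, Benjamini-Hochberg adjusted p = 0.714). With single arrays left out it lay between 0.02 (without βUCP2Tg replicate 2) and 0.10 (without WT replicate 4). On the second probe, A_51_P254541, every βUCP2Tg array (1.75, 1.82, 1.64 and 1.63) was above every WT array (1.56, 1.44, 1.57 and 1.61), but by a log2 difference of only 0.16 (95% confidence interval -0.04 to 0.37; limma, Benjamini-Hochberg adjusted p = 0.278). *Bak1* encodes BAK, which resides in the mitochondrial membrane all the time. It gave 1.31, 1.57, 1.60 and 1.46 in βUCP2Tg, all inside the WT range of 1.10, 1.85, 1.70 and 1.48 for replicates 1 to 4, and its log2 difference was -0.05 (95% confidence interval -0.43 to 0.33; limma, Benjamini-Hochberg adjusted p = 0.884).

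*Pmaip1* encodes NOXA, a BH3-only protein that binds MCL1 and is a target of p53 and of stress-response transcription factors. Its only probe, A_51_P477121, gave -1.04, -0.97, -1.08 and -1.22 in βUCP2Tg and -1.84, -1.30, -1.65 and -1.81 in WT. The lowest βUCP2Tg array was above the highest WT array, and *Pmaip1* was 1 of 3 member probes whose groups did not overlap, each with the higher signals in βUCP2Tg. Over all probes tested the groups did not overlap on 12.4%, with the higher signals in βUCP2Tg on 5.25% and in WT on 7.17%. The log2 difference of *Pmaip1* was 0.57 (SE 0.14, 95% confidence interval 0.26 to 0.88), a signal 1.49-fold higher, with an adjusted p of 0.0845 by limma and Benjamini-Hochberg. The two-sided exact permutation test of its signals gave p = 0.0286, the smallest that 4 arrays against 4 allow.

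WT replicate 1 was the lowest array for *Pmaip1*, and βUCP2Tg replicate 4 the βUCP2Tg array nearest to WT. WT replicate 1 was thus the WT array farthest from βUCP2Tg, whereas in the hypoxia response genes it was the nearest. Without it the log2 difference of *Pmaip1* was 0.51. The part of the hypoxia response in the *Pmaip1* difference was not tested. Its log2 difference lay between 0.39 and 0.69 in the 22 alternative analyses, with an unadjusted p under 0.05 in each. The adjusted p came under 0.05 in 3 of them with a fold change still under 1.5, and *Pmaip1* was therefore called in none.

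*Bcl2l11* encodes BIM, a BH3-only protein that binds every guard of the family and can activate BAX. Its brightest probe, A_52_P158527, gave 0.50, 0.66, 0.70 and 0.61 in βUCP2Tg and 0.32, 0.80, 0.50 and 0.31 in WT, with overlapping groups and a log2 difference of 0.14 (limma, Benjamini-Hochberg adjusted p = 0.522). That difference was 0.24 without WT replicate 2, 0.08 without WT replicate 4 and 0.08 without WT replicate 1. The probe A_55_P2504051 gave -2.09, -2.04, -2.16 and -2.17 in βUCP2Tg, all above the WT signals of -2.42, -2.47, -2.41 and -2.21, at a log2 difference of 0.26 (SE 0.09; limma, Benjamini-Hochberg adjusted p = 0.134). After normexp background correction that difference was 0.14 (limma, unadjusted p = 0.0649). The dim probe A_52_P348214 had a log2 difference of 0.62 (SE 0.29; limma, Benjamini-Hochberg adjusted p = 0.222), which was 0.0017 after normexp background correction.

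The BH3 probe of *Bcl2l11*, A_51_P484880, had its difference on the other side of 0. It gave -3.77, -3.71, -3.67 and -3.46 in βUCP2Tg and -4.41, -2.80, -2.77 and -3.25 in WT. WT replicates 2 to 4 were above all βUCP2Tg arrays and WT replicate 1 was far below them, which left a log2 difference of -0.34 (SE 0.34; limma, Benjamini-Hochberg adjusted p = 0.554). Without WT replicate 1 the log2 difference was -0.71 (limma, Benjamini-Hochberg adjusted p = 0.0257) and the probe was called as lower, whereas it was -0.17 without WT replicate 2 and -0.16 without WT replicate 3. In 6 comparisons between pairs of *Bcl2l11* probes the genotype difference differed by up to 0.96 on the log2 scale. Of the 21 probe pairs of all member genes, 2 reached the smallest p of a two-sided exact permutation test (0.0286, adjusted p = 0.3 over the 21 pairs), a *Bcl2* pair (the difference on A_51_P380013 minus that on A_52_P534870 was -0.31) and the *Mcl1* pair (A_51_P238786 minus A_55_P2740649, -0.14). A test at this floor and with this adjustment could hardly pass, and says little on whether probes of a gene differ. The probes thus gave no single direction for *Bcl2l11*. By their annotation A_51_P484880 and A_52_P158527 belong to transcript variant 1, and A_52_P348214 and A_55_P2504051 to variant 4. Which splice forms each one reads was not settled.

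*Bad* encodes a BH3-only protein that is silenced by phosphorylation and held by 14-3-3 proteins. Its probe gave 2.83, 2.88, 2.75 and 2.58 in βUCP2Tg and 2.75, 2.29, 2.21 and 2.64 in WT. WT replicates 2 and 3 were below every βUCP2Tg array, whereas replicates 1 and 4 were not, and the log2 difference was 0.29 (SE 0.14; limma, Benjamini-Hochberg adjusted p = 0.243).

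*Bid* and *Bbc3* varied more among arrays of a genotype than between genotypes. *Bid* encodes a BH3-only protein that caspase-8 cuts, tying death receptors to mitochondria. Its probe A_52_P574653 gave -0.44, 0.21, 0.18 and -0.16 in βUCP2Tg and -0.79, 0.61, 0.22 and -1.01 in WT, so that the WT arrays alone spanned the whole range of 1.62 on the log2 scale, and the log2 difference was 0.19 (SE 0.36; limma, Benjamini-Hochberg adjusted p = 0.774). The other *Bid* probe, A_55_P2719920, was not well above background on any of the 8 arrays and was not tested.

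*Bbc3* encodes PUMA, a p53 target that binds all guards. It gave 1.69, 1.97, 1.90 and 1.45 in βUCP2Tg and 1.96, 1.91, 1.37 and 0.83 in WT. WT replicates 1 and 2 lay at the top of the βUCP2Tg range and replicates 3 and 4 below it, and the log2 difference was 0.24 (SE 0.26; limma, Benjamini-Hochberg adjusted p = 0.595). Without WT replicate 4 it was 0.01, and without WT replicate 1 it was 0.38.

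The 2 member genes with the widest range over arrays on their brightest probe were set beside all other genes. Each gene was taken by its brightest tested probe, its log2 profile being centred on its own mean over the 8 arrays. The profiles closest to *Bid* were those of *Parp11*, *Clic5* and *Lgals8*, with a root mean square difference over 8 arrays of 0.11, 0.11 and 0.12 on the log2 scale. All 3 were, like *Bid*, highest on WT replicate 2 and lower on WT replicates 1 and 4. Those closest to *Bbc3* were *BC024386*, *Rad51ap1* and *Lgi4*, at 0.11, 0.13 and 0.14.

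**Figure D4:**
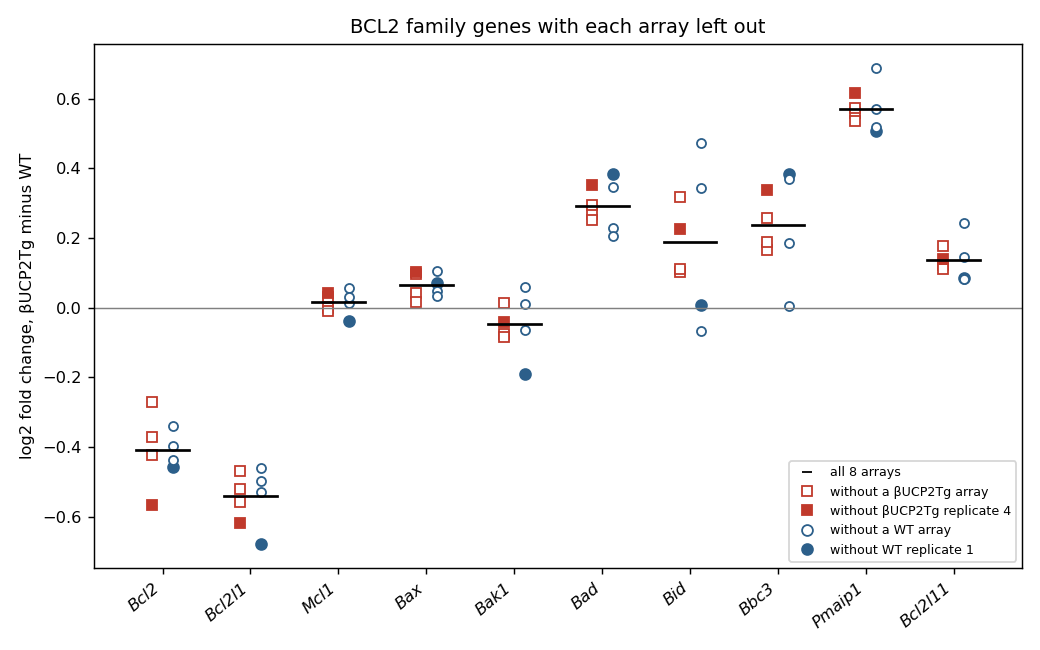
Log2 fold change (βUCP2Tg minus WT) of the brightest probe of each of the 10 genes with all 8 arrays (black line) and with each array left out in turn, red squares for a βUCP2Tg array left out and blue circles for a WT array. Filled symbols mark βUCP2Tg replicate 4 and WT replicate 1. *Bcl2* and *Bcl2l1* stay below 0 and *Pmaip1* above 0 whichever array is left out, *Bcl2l1* is farthest from 0 without WT replicate 1, and *Mcl1*, *Bak1* and *Bid* fall on both sides of 0.

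Related genes were counted by the same fit, each by its brightest tested probe. Over all genes 0.481% were called by that probe, 12.9% were higher and 11.6% lower at an unadjusted p under 0.05. Of 13 tested other BCL2 family genes none was called, 2 were higher and 2 lower at an unadjusted p under 0.05, and the median log2 difference was 0.02. *Bmf* encodes a BH3-only protein tied to the cytoskeleton, and its log2 signal was 0.44, 0.14, -0.07 and -0.01 in βUCP2Tg and -0.13, -1.18, -0.82 and -0.70 in WT. Every βUCP2Tg array was above every WT array, at a log2 difference of 0.83 (limma, Benjamini-Hochberg adjusted p = 0.0955). *Bnip3*, a mitochondrial receptor for mitophagy and a known hypoxia target, gave 4.09, 4.08, 4.05 and 5.83 in βUCP2Tg and 5.18, 6.30, 6.26 and 6.45 in WT, a log2 difference of -1.54 (limma, Benjamini-Hochberg adjusted p = 0.108). Its outlying arrays, βUCP2Tg replicate 4 and WT replicate 1, were those of the hypoxia response genes. At the far end of the list *Bcl2a1c*, of a family of near-identical genes whose probes may not tell them apart, had a log2 difference of 0.00.

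Downstream of the pore, the 16 genes of the apoptosome, the caspases and their inhibitors held 0 called genes and 2 at an unadjusted p under 0.05, both higher, with a median log2 difference of -0.02. *Casp9*, the caspase that cytochrome c and APAF1 activate, had a log2 difference of 0.50 (limma, Benjamini-Hochberg adjusted p = 0.143), and *Htra2*, a mitochondrial protease that blocks caspase inhibitors once released, one of 0.23 (limma, Benjamini-Hochberg adjusted p = 0.178). The survivin gene *Birc5* had the largest p of the list, at a log2 difference of 0.01.

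Of 9 tested death receptor genes 2 were higher and 1 lower at an unadjusted p under 0.05, with none called and a median log2 difference of -0.15. The higher ones encode the adaptors FADD and TRADD. *Fadd* gave -0.89, -0.77, -0.80 and -1.07 in βUCP2Tg and -1.14, -1.40, -1.42 and -1.21 in WT, groups that do not overlap, with a log2 difference of 0.41 (limma, Benjamini-Hochberg adjusted p = 0.0963). *Tradd* had a log2 difference of 0.31 (limma, Benjamini-Hochberg adjusted p = 0.117) and likewise no overlap, and *Traf2*, another adaptor, had the largest p at -0.07.

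Upstream, no gene of the list of p53 and its targets was called on its brightest probe. Counting any tested probe, it was the only one of these lists with a called gene. The share of all genes called on any probe was not counted. *Cdkn1a*, which encodes the cell cycle inhibitor p21, rose on its probe A_55_P1986282, from -5.46, -5.22, -5.66 and -5.23 in WT to -4.32, -3.92, -4.31 and -4.58 in βUCP2Tg. That log2 difference was 1.11 (SE 0.16; limma, Benjamini-Hochberg adjusted p = 0.0456), but the brightest *Cdkn1a* probe, A_51_P363947, had one of -0.21 (limma, Benjamini-Hochberg adjusted p = 0.519), so the probes of this gene disagreed. Of the 16 genes 3 were higher and 2 lower at an unadjusted p under 0.05, with a median log2 difference of 0.11, and *Trp53* itself had a log2 difference of 0.09. *Phlda3*, a p53 target that restrains AKT and was named after its values were seen, gave 1.73, 2.20, 1.79 and 1.39 in βUCP2Tg and 0.99, 0.74, 0.61 and 0.44 in WT, a log2 difference of 1.09 (limma, Benjamini-Hochberg adjusted p = 0.0522). The 2 lower genes, likewise named after their values were seen, were *Plk2* with a log2 difference of -1.01 and *Btg2* with -0.44. The p53 targets among the members were on both sides of that list's median, *Pmaip1* at 0.57, *Bbc3* at 0.24 and *Bax* at 0.06.

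Of 10 transcription factors known to act on BH3-only genes, 0 were called, 0 were higher and 5 were lower at an unadjusted p under 0.05, with a median log2 difference of -0.21. *Atf4*, the main factor of the integrated stress response and an activator of *Pmaip1*, gave 7.83, 7.87, 7.76 and 7.60 in βUCP2Tg and 7.98, 8.33, 8.13 and 8.13 in WT. Every βUCP2Tg array was below every WT array, at a log2 difference of -0.37 (limma, Benjamini-Hochberg adjusted p = 0.104). *Cebpb*, a factor of the same stress response, had -0.47 (limma, Benjamini-Hochberg adjusted p = 0.121), and *Myc* had the largest p, at 0.00. The mean log2 signal of the list was 1.58 on WT replicate 1, within the βUCP2Tg range of 1.56 to 1.71, and 2.40, 2.10 and 2.03 on WT replicates 2 to 4. The array thus stood apart here as in the hypoxia response genes, and its part in the list's difference was not tested.

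Among 19 tested kinases, 14-3-3 proteins and ubiquitin enzymes that act on the members, 0 were called and 6 were lower at an unadjusted p under 0.05, with a median log2 difference of -0.10. The 14-3-3 gene *Ywhah* gave 5.07, 5.24, 5.12 and 5.52 in βUCP2Tg and 5.55, 5.92, 5.86 and 5.85 in WT, a log2 difference of -0.56 (limma, Benjamini-Hochberg adjusted p = 0.0845). *Ywhaz*, of the same family that holds phosphorylated BAD, had -0.25 (limma, Benjamini-Hochberg adjusted p = 0.117), and neither overlapped between the groups. *Vdac2*, the mitochondrial channel that keeps BAK in its place, had a log2 difference of 0.00. The mean log2 signal of the list was 2.77 on WT replicate 1, within the βUCP2Tg range of 2.72 to 2.79. On WT replicates 2 to 4 it was 2.95, 2.90 and 2.88, and the part of WT replicate 1 in the list's difference was not tested.

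**Figure D5:**
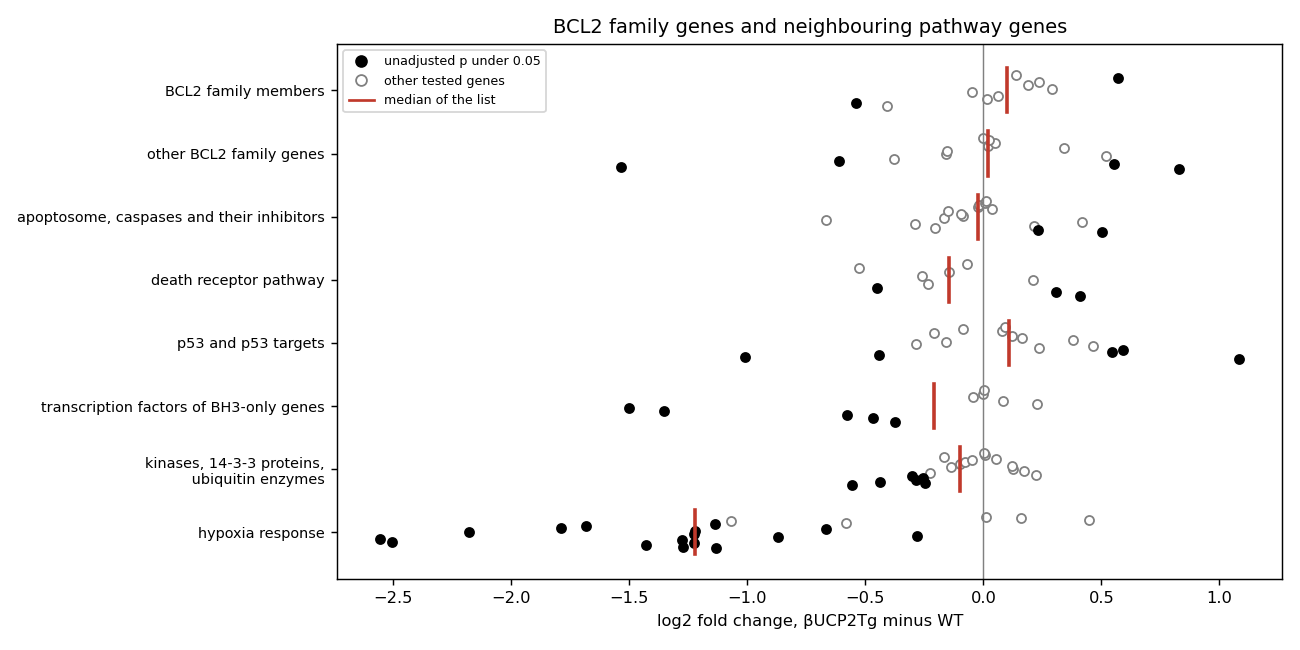
Log2 fold change (βUCP2Tg minus WT) of each tested gene by its brightest probe, for the 10 BCL2 family genes and 7 lists of related genes, filled where the unadjusted p was under 0.05, with the median of each list in red. The hypoxia response genes, chosen with earlier results of these data known, lie farthest from 0, with a median of -1.22. Of them 16 of 21 were lower at an unadjusted p under 0.05, beside 11.6% of all genes. The medians of the other lists lie between -0.21 and 0.11.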

How the data were processed

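Total RNA of 8 islet samples was labelled with Cy3 and hybridised to Agilent mouse arrays, 1 sample per array. The authors processed each scan with Agilent Feature Extraction (version 9.1 per the labels, 10.7.3.1 per the file headers), and the deposited scanner files give background-subtracted spot intensity on a linear scale. The authors' deposited table holds log2 values, which equal log2 of the same intensity minus a constant for each array, close to the 75th percentile over probe averages with controls. Its columns of the authors' own comparison (a fold change, a signed fold score, a log2 ratio and p-values) were not used.

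From the intensity files, control spots and spots marked as outliers were left out, log2 was taken, each array's 75th percentile was subtracted and spots of a probe were averaged. A probe was tested where at least 50% of its spots were well above background on at least 4 arrays. A linear model with moderated variances (limma 3.58.1, R 4.3.3) gave the difference βUCP2Tg minus WT, with Benjamini-Hochberg adjustment over 35363 probes. Calls needed an adjusted p below 0.05 together with more than a 1.5-fold change. The fit was tested on simulated data. For single values a two-sided exact permutation test was used, and the comparison of probe pairs was added after the data had been seen. No depth applies to arrays, and the number of arrays limits the precision.

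Values of all tested probes of the 10 genes are given, and sequences for 5 probes. The values of 1 related gene are not reported here. From each related list the genes called on any probe are named, otherwise the 2 genes with the smallest and the gene with the largest unadjusted p. *Phlda3*, *Plk2* and *Btg2* of the p53 list were named besides. The member genes and the lists were chosen with earlier results of these data known. Symbols come from the deposited table, with 47 further probes named through RefSeq (GRCm38.p6). Python 3.11.15 with matplotlib 3.10.9 drew the figures.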

Additional observations from a re-analysis of the deposited data

How the results depend on the processing

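Of 22 alternative analyses, 19 called none of the 10 BCL2 family genes. The count was 3 without both βUCP2Tg replicate 4 and WT replicate 1 (*Bcl2* and *Bcl2l1*, lower, and *Bcl2l11* by its probe A_51_P484880 alone, lower, while its other probes had log2 differences above 0), and 0 to 3 when single arrays were left out. The probes called over the whole array were far less stable, which limits what any adjusted p can carry: 145 became 21 with no filter on dim probes, 38 with the filter at 1 array, 237 with the filter at all 8, 816 after normexp background correction, 379 with an intensity trend, 26 with the methods' t-test, 83 with the mean of a gene's probes, 8 to 3759 with single arrays left out and 5486 without both arrays. With a gene's probes averaged, 2 of 10 member genes were under an unadjusted p of 0.05 and 1 had no overlap. In that setting 5704 of 23028 genes or unnamed probes were under 0.05. With single arrays left out, 3 to 10 member probes were under 0.05 and 3 to 11 did not overlap, and 13 did not overlap without both arrays. Over all probes the count under 0.05 moved too, from 5646 of 35080 without βUCP2Tg replicate 2 to 12229 of 34786 without WT replicate 1. The share of all probes without overlap was not counted in these settings. Correlations of same-numbered deviations (0.44, -0.05, -0.01 and -0.24) did not settle whether the replicate numbers pair the samples. For replicate 1 the value was above those with other-numbered WT arrays (-0.47 to 0.23), and for replicates 2 to 4 it lay within theirs. With the replicate number as a block 14 probes and 0 member genes were called. The small log2 differences turned sign, *Mcl1* to -0.0561 with the mean of its probes, -0.0137 without both arrays and between -0.0394 and 0.0559 without single arrays, *Bak1* to between -0.1907 and 0.0587 and *Bid* to between -0.0667 and 0.4726 without single arrays. *Bcl2*, *Bcl2l1*, *Bax*, *Bad*, *Pmaip1* and *Bcl2l11* kept their direction on the brightest probe under every alternative run, as did *Bbc3*, whose log2 difference however ran from 0.0055 without WT replicate 4 to 0.4849 without both arrays (0.3844 without WT replicate 1 alone). The cause of these changes was not tested.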
